A study of Arabidopsis thaliana with 18 samples.

Results

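The *sdg8-2* and *sdg26-1* mutants of Arabidopsis were compared with each other at 16 °C and at 25 °C, over all alternative splicing (AS) events of the deposited splicing table except those of *FLOWERING LOCUS M* (*FLM*, AT1G77080). Of 399 events in the table, 397 were used, and they are listed under 333 gene labels, 1 of them a row without a gene identifier. Both mutants are T-DNA insertion lines, Salk_026442 (*sdg8-2*) and Salk_013895 (*sdg26-1*), and Col-0 served as WT. All plants spent 5 weeks at 16 °C in short days (8 h light, 16 h dark), after which some stayed at 16 °C and others were moved to 25 °C for 1 day. With 3 samples for every genotype at either temperature there were 18 samples in all, 12 of them from the mutants, and each sample held shoot apical meristem (SAM)-enriched tissue with young leaves of about 10 plants. Each mutant was represented by 1 insertion allele. For each event the table gives the percentage of spliced in (PSI), a fraction from 0 to 1, as 1 value per genotype and temperature, pooled by the authors over the 3 samples.

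Splicing removes introns from the pre-mRNA, and AS joins the exons of 1 gene in more than 1 way. The 5 types of event in the table are exon skipping (ES), intron retention (IR), mutually exclusive exons (MXE), and the use of another 3′ splice site (A3) or another 5′ splice site (A5). SDG8 and SDG26 are SET-domain proteins that methylate lysine 36 of histone H3 in the body of transcribed genes. SDG8 is known as the major H3K36 methyltransferase of Arabidopsis, and loss of SDG8 leads to early and loss of SDG26 to late flowering. In mammals, H3K36 methylation is read by adaptor proteins that can bring splicing regulators to the chromatin.

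The differences below are PSI in *sdg8-2* minus PSI in *sdg26-1*, so that a positive value means a higher PSI in *sdg8-2*. PSI counts the form that the authors set as reference for an event, and the table does not say which form that is. A higher PSI of an IR event is therefore not read here as more or less retention. Values per sample are not in the table, so no difference can be set against the spread between plants, no test was possible, and all counts below are descriptions of these pooled values. A difference of at least 0.1 was counted, and the 2 decimals of the table leave an error of up to 0.01 on each difference. The depth behind each PSI is unknown. Every event in the table had been called by the authors as differentially spliced between the temperatures in at least 1 of the 3 genotypes, so the shares below apply to temperature-responsive events only.

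The mutants had similar PSI values in most events, and most events in which they stood apart reached a difference of 0.1 at 1 temperature only. At 16 °C, 55 events in 52 genes differed by at least 0.1 (13.9% of the events), and at 25 °C, 69 events in 62 genes did (17.4%). The median absolute difference was 0.03 at 16 °C and 0.04 at 25 °C, and the 0.9 quantile was 0.11 and 0.12. At 16 °C, 30 of the differing events were higher in *sdg8-2* (7.56% of all events) and 25 were lower (6.3%). At 25 °C, 36 were higher (9.07%) and 33 lower (8.31%). Neither mutant thus had the higher PSI throughout, and the median signed difference was 0 at both temperatures.

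At 1 or both temperatures, 106 events in 95 genes differed (26.7%). At both temperatures, 11 events in 10 genes differed in the same direction (2.77%), and 7 events in 7 genes differed in opposite directions (1.76%). These 11 and 7 events are among the 55 that differed at 16 °C, and of all 397 events 17.4% differed at 25 °C. The split into classes depends on the cut of 0.1. A further 37 events differed at 16 °C only and 51 at 25 °C only. Of the 340 events with a difference other than 0 at both temperatures, 163 (47.9%) had the same sign. Across the 397 events the differences at 16 °C and 25 °C had a Pearson's r of 0.19 and a Spearman's rho of −0.01. Events are not independent replicates, and events of 1 gene share their reads. Without the IR events of *RPP4* and *MBAC1*, which lay farthest from the median at 16 °C, r was 0.06.

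**Figure D1:**
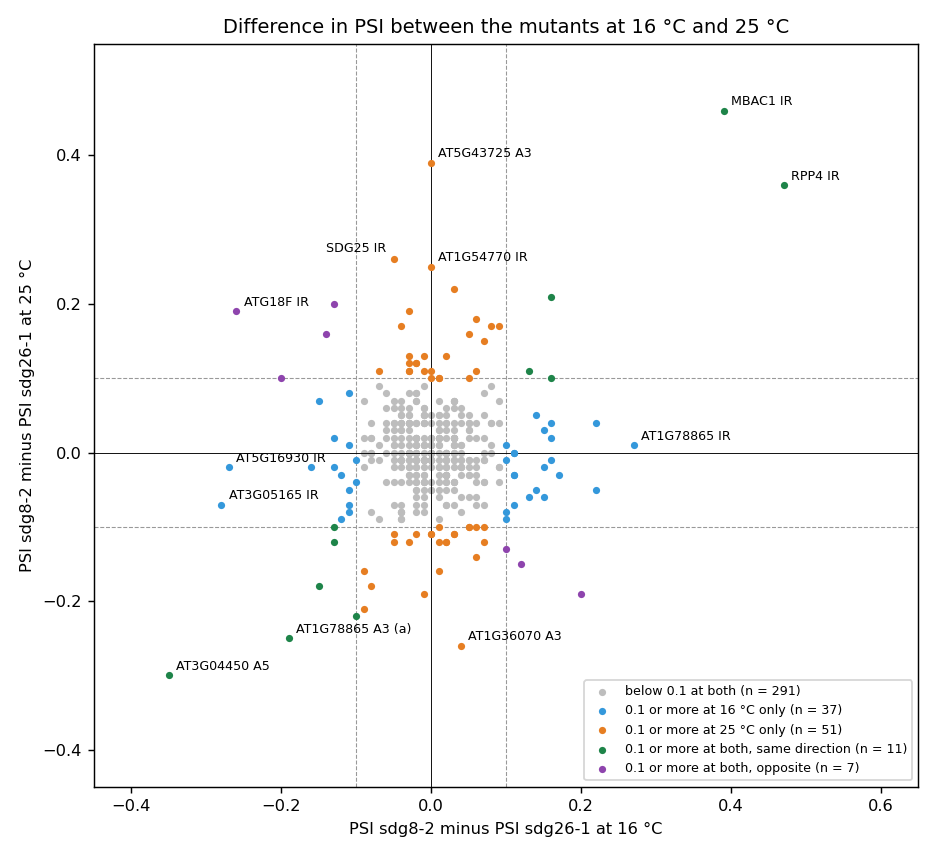
Each point is 1 of 397 splicing events, with the PSI of *sdg8-2* minus that of *sdg26-1* at 16 °C (x axis) and at 25 °C (y axis), and colours give the class of the event. *RPP4* and *MBAC1* lie alone at the upper right, whereas most events that differed at 1 temperature (37 in blue, 51 in orange) lie near 0 at the other.

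The event that differed most at 16 °C was an IR event of *RPP4* (AT4G16860, TAIR10.1 chromosome 4, positions 9488466 to 9495837, reverse strand), a TIR-NBS-LRR immune receptor for downy mildew. At 16 °C, WT had a PSI of 0.54, *sdg8-2* of 0.99 and *sdg26-1* of 0.52, and at 25 °C the values were 0.68, 1.00 and 0.64. In *sdg8-2* the estimated PSI of this event was at or near the upper bound of 1 at both temperatures, while *sdg26-1* lay within 0.04 of WT. The differences were 0.47 and 0.36.

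An IR event of *MBAC1* (AT2G33820, chromosome 2 from 14306293 to 14308367, reverse strand), a mitochondrial carrier of basic amino acids, differed most at 25 °C. In WT, *sdg8-2* and *sdg26-1*, its PSI was 0.68, 0.97 and 0.58 at 16 °C and 0.36, 0.74 and 0.28 at 25 °C. The PSI fell with temperature in all 3 genotypes, and the distance between the mutants was kept, with differences of 0.39 and 0.46.

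The opposite direction was led by an A5 event of AT3G04450 (chromosome 3 from 1181706 to 1186444, forward strand), which encodes a Homeodomain-like protein of the transcription factor group. PSI in WT, *sdg8-2* and *sdg26-1* was 0.77, 0.27 and 0.62 at 16 °C and 0.77, 0.54 and 0.84 at 25 °C. WT gave the same value at both temperatures, and *sdg8-2* was the lowest at each. The differences were −0.35 and −0.30. An IR event of the same gene was higher in *sdg8-2*, with 0.66 against 0.57 at 16 °C and 0.55 against 0.38 at 25 °C, and WT had 0.43 and 0.42. Of all events used, the IR events of *RPP4* and *MBAC1* and this A5 event were the 3 that differed by at least 0.2 at both temperatures.

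The noncoding RNA AT1G78865 (chromosome 1 from 29647738 to 29649951, reverse strand) had 2 A3 events that differed in the same direction at both temperatures. For the first, PSI in WT, *sdg8-2* and *sdg26-1* was 0.65, 0.53 and 0.72 at 16 °C and 0.05, 0.03 and 0.28 at 25 °C. For the second, it was 0.74, 0.67 and 0.77 at 16 °C and 0.18, 0.07 and 0.29 at 25 °C. Both were lower in *sdg8-2*, by differences of −0.19 and −0.10 at 16 °C and −0.25 and −0.22 at 25 °C, and being events of 1 gene they are not independent of each other. An IR event of this gene differed at 16 °C only, where *sdg8-2* had 0.91, *sdg26-1* 0.64 and WT 0.61, and all 3 genotypes had 0.99 or 1.00 at 25 °C.

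Further events that differed at both temperatures in 1 direction came from genes of several annotations. The IR event of AT1G62310, a jumonji (jmjC) domain protein, was higher in *sdg8-2*, with 0.42 against 0.26 at 16 °C and 0.57 against 0.36 at 25 °C, and WT had 0.31 and 0.41. An A5 event of *HAC12*, a histone acetyltransferase of the CBP family, was lower in *sdg8-2*, with 0.44 against 0.57 at 16 °C and 0.21 against 0.31 at 25 °C. WT had 0.32 and 0.30 for this event, so that both mutants were above WT at 16 °C. A second A5 event of *HAC12* had nearly the same values, with differences of −0.12 and −0.09. An IR event of AT1G50970, a VPS53 family protein of membrane trafficking, was higher in *sdg8-2* (0.72 against 0.56, and 0.51 against 0.41). That of AT2G42950, a CorA-like magnesium transporter, was lower (0.61 against 0.76, and 0.46 against 0.64). WT had a higher PSI than both mutants in AT2G42950 at 16 °C, 0.93, and lay between them at 25 °C, with 0.52. An A3 event of AT3G61010, a ferritin/ribonucleotide reductase-like protein, was higher in *sdg8-2* by 0.13 and 0.11. For AT4G02540, a C1 domain protein, the IR event gave differences of −0.13 and −0.12.

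**Figure D2:**
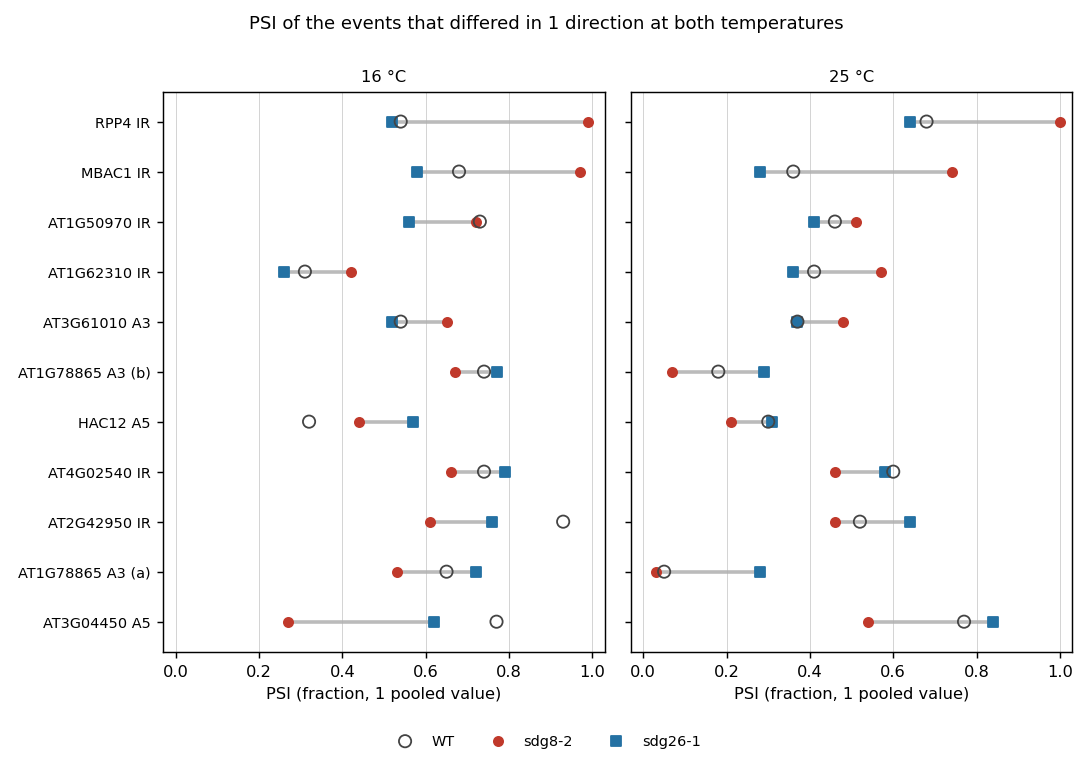
PSI in WT (open circles), *sdg8-2* (red) and *sdg26-1* (blue squares) is shown for the 11 events that differed by at least 0.1 in the same direction at 16 °C (left) and 25 °C (right), each point being 1 pooled value; (a) and (b) mark the 2 A3 events of AT1G78865. In *RPP4* the *sdg26-1* and WT values lie together, at 0.52 and 0.54 at 16 °C, while *sdg8-2* stands at 0.99.

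In 7 events the mutants changed places between the temperatures. For the IR event of the long noncoding RNA AT1G27921 (chromosome 1 from 9726607 to 9730424, reverse strand), PSI in WT, *sdg8-2* and *sdg26-1* was 0.47, 0.65 and 0.45 at 16 °C and 0.69, 0.46 and 0.65 at 25 °C. The PSI of *sdg8-2* thus moved down with temperature, while that of WT and *sdg26-1* moved up, with differences between the mutants of 0.20 and −0.19. A second such case, the IR event of *ATG18F* (AT5G54730, chromosome 5 from 22233789 to 22237370, reverse strand), a homolog of yeast autophagy protein ATG18, gave 0.49, 0.56 and 0.82 at 16 °C and 0.60, 0.88 and 0.69 at 25 °C. Here WT was the lowest at both temperatures, and the differences were −0.26 and 0.19. These were the only 2 events in which the mutants moved in opposite directions with temperature by at least 0.1 each.

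In the other 5 events PSI moved by less than 0.1 in 1 of the mutants. The A5 event of *ABA3* (AT1G16540), the molybdenum cofactor sulfurase needed for abscisic acid synthesis, had 0.27 in *sdg8-2* and 0.40 in *sdg26-1* at 16 °C, and 0.31 and 0.11 at 25 °C, whereas WT went from 0.47 to 0.27. The A5 event of *BSK4* (AT1G01740), a kinase of the brassinosteroid-signalling kinase family, had 0.45 and 0.33 at 16 °C and 0.41 and 0.56 at 25 °C. The A5 event of *PLDGAMMA3* (AT4G11840), a phospholipase D, had 0.80 and 0.94 at 16 °C and 0.82 and 0.66 at 25 °C. For both kinase and phospholipase, *sdg8-2* stayed within 0.05 of WT and *sdg26-1* moved away from it, in opposite directions at the 2 temperatures. In the A3 event of AT2G25730, a protein without annotated function, *sdg8-2* was low at 16 °C (0.60, against 0.84 in WT and 0.80 in *sdg26-1*), and *sdg26-1* was low at 25 °C (0.77, against 0.87 in both others). The ES event of AT2G23985 had differences of 0.10 and −0.13.

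**Figure D3:**
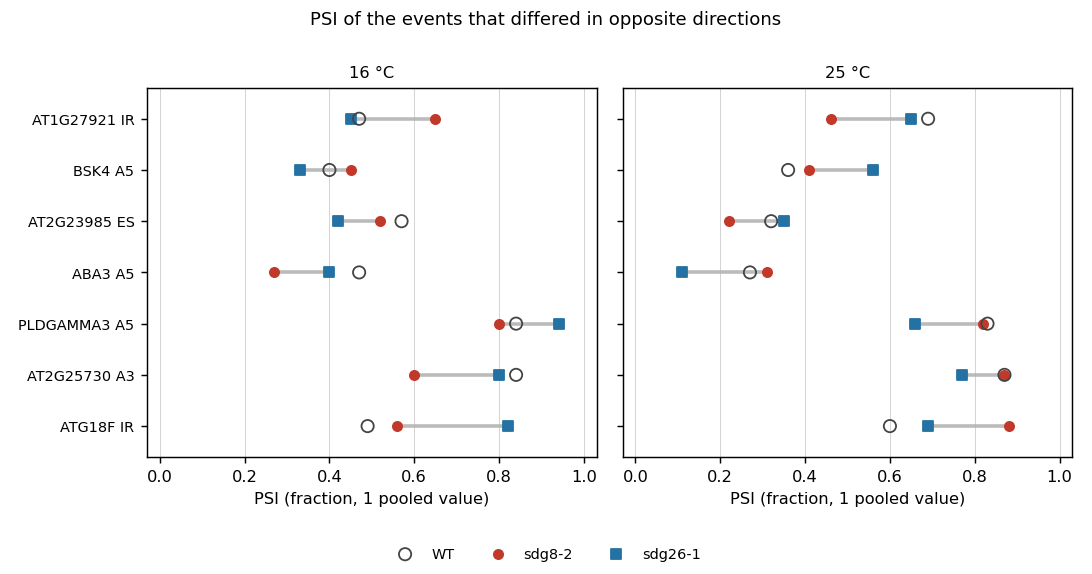
PSI in WT (open circles), *sdg8-2* (red) and *sdg26-1* (blue squares) is shown for the 7 events whose difference had opposite signs at 16 °C (left) and 25 °C (right), each point being 1 pooled value. In AT1G27921 *sdg8-2* stands at 0.65 above the others at 16 °C and at 0.46 below them at 25 °C.

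At 16 °C only, 22 of 37 events were higher in *sdg8-2* and 15 were lower, and the median absolute difference of these events was 0.13 at 16 °C and 0.03 at 25 °C. The AAA-type ATPase AT5G16930 had an IR event with a PSI of 0.68 in *sdg8-2*, 0.95 in *sdg26-1* and 0.92 in WT at 16 °C, and all 3 genotypes had 0.97 to 0.99 at 25 °C. In the IR event of AT3G05165, a transporter of the major facilitator superfamily, it was *sdg26-1* that stood apart at 16 °C, with 0.72 against 0.44 in *sdg8-2* and 0.46 in WT, and at 25 °C the values were 0.41, 0.34 and 0.44. The ES event of the noncoding RNA AT4G06701 had 0.86 in *sdg8-2*, 0.64 in *sdg26-1* and 0.67 in WT at 16 °C and 0.85, 0.90 and 0.89 at 25 °C. The only MXE event in the table, in AT3G24360 of the Clp protease/crotonase family, had 0.35 in *sdg8-2*, 0.13 in *sdg26-1* and 0.30 in WT at 16 °C and differed by 0.04 at 25 °C. In 25 of the 37 events PSI changed more with temperature in *sdg26-1*, and in 12 it changed more in *sdg8-2*. The 37 events were picked for differing at 16 °C and not at 25 °C, so unequal changes follow from the selection. The same count was not made over all events, so no larger response of either mutant is read from it.

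At 25 °C only, 27 of 51 events were higher in *sdg8-2* and 24 were lower, with a median absolute difference of 0.12 at 25 °C and 0.03 at 16 °C. In 28 of them the change with temperature was larger in *sdg26-1* and in 23 it was larger in *sdg8-2*, and here too unequal changes follow from the selection. The event that differed most was an A3 event of the noncoding RNA AT5G43725 (chromosome 5 from 17559541 to 17564223, forward strand). Both mutants had 0.68 at 16 °C, above the 0.54 of WT, and at 25 °C *sdg8-2* had 0.74, *sdg26-1* 0.35 and WT 0.50, a difference of 0.39. *SDG25* (*ATXR7*, AT5G42400, chromosome 5 from 16953515 to 16961245, reverse strand), a SET-domain protein that methylates lysine 4 of histone H3 and is needed for expression of the floral repressor *FLC*, had an IR event with 0.88 in *sdg8-2*, 0.93 in *sdg26-1* and 0.96 in WT at 16 °C. At 25 °C the values were 0.87, 0.61 and 0.84, so that the PSI of *sdg26-1* fell with temperature where that of *sdg8-2* stayed. An A3 event of the same gene was higher in *sdg8-2* at 16 °C (0.23 against 0.13) and below 0.1 in difference at 25 °C.

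The largest negative value at 25 °C only was that of an A3 event of AT1G36070, a WD40 repeat protein. PSI was 0.56 in *sdg8-2* and 0.52 in *sdg26-1* at 16 °C, and 0.15 and 0.41 at 25 °C, where WT had 0.46. Here it was *sdg8-2* that moved away. In AT1G54770, a pre-rRNA processing protein, an IR event had 0.94 in both mutants at 16 °C and 0.78 in *sdg8-2* against 0.53 in *sdg26-1* at 25 °C, and WT had 0.71. The A5 event of AT5G26680, a 5′-3′ exonuclease family protein, had a difference of 0.22 and the ES event of AT5G58370, a P-loop NTPase, of −0.21. In the latter, PSI rose from 0.10 to 0.41 in *sdg8-2*, from 0.19 to 0.62 in *sdg26-1* and from 0.13 to 0.49 in WT, so that the genotypes kept their order.

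Over all events, PSI moved in the same direction with temperature in both mutants in 357 of 397 events and in opposite directions in 33, and in 7 at least 1 mutant had the same PSI at both temperatures. The change with temperature differed between the mutants by at least 0.1 in 107 events, by at least 0.2 in 21 and by at least 0.3 in 8. At the larger size of 0.2, the mutants differed in 11 events at 16 °C and in 13 at 25 °C.

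By event type, IR had the most events, 154, of which 23 differed at 16 °C (13 higher in *sdg8-2*, 10 lower) and 27 at 25 °C (17 higher, 10 lower). Of 130 A3 events, 16 differed at 16 °C (7 higher, 9 lower) and 19 at 25 °C (9 higher, 10 lower). Of 72 A5 events, 11 differed at 16 °C (5 higher, 6 lower) and 16 at 25 °C (7 higher, 9 lower). All 4 of the 40 ES events that differed at 16 °C were higher in *sdg8-2*, in AT4G06701, AT5G20450, AT3G51075 and AT2G23985, whereas of the 7 at 25 °C 3 were higher and 4 lower. Counted over all ES events whatever their size, 25 were higher and 12 lower in *sdg8-2* at 16 °C, and 13 were higher and 21 lower at 25 °C. Over all IR events the counts were 66 higher and 79 lower at 16 °C, and 78 and 63 at 25 °C. The share of events that differed at 1 or both temperatures was 27.3% for IR, 23.8% for A3, 30.6% for A5 and 25.0% for ES, against 26.7% over all events. The share was 12.1% where the mean PSI of the mutants was under 0.2, 40.5% between 0.4 and 0.6, and 24.1% at 0.8 or more.

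**Figure D4:**
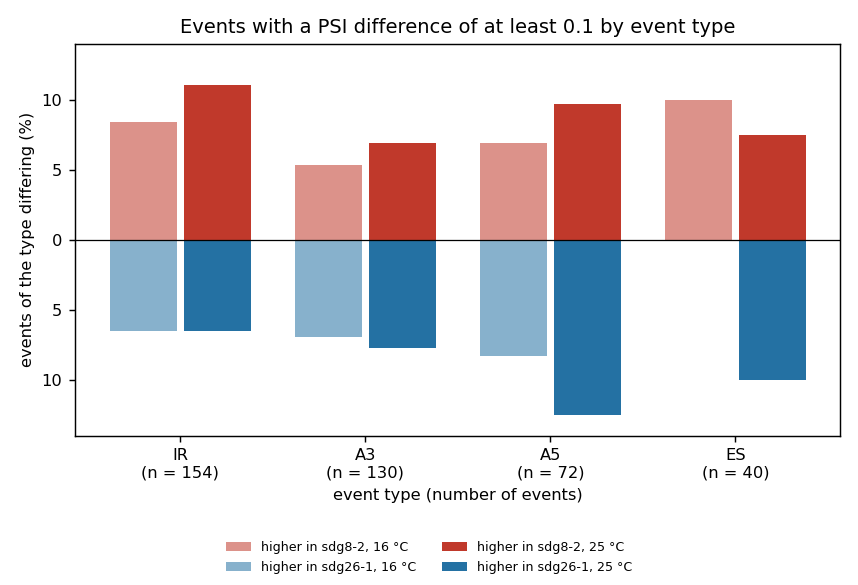
Bars give the share of events of each type, in percent, with a PSI difference of at least 0.1, upward for higher PSI in *sdg8-2* and downward for higher PSI in *sdg26-1*, pale at 16 °C and dark at 25 °C. The ES bars show no event that was higher in *sdg26-1* at 16 °C and 4 of 40 at 25 °C; the single MXE event is not shown.

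The annotation groups were described by counts only, and an event can fall into more than 1 group. Chromatin proteins and corepressors had 10 of 24 events differing at 1 or both temperatures (41.7%, against 26.7% over all events). The differing events were 7 at 16 °C (29.2%, against 13.9%) and 5 at 25 °C (20.8%, against 17.4%). Besides those of *SDG25*, *HAC12* and AT1G62310 they were an A5 event of *JMJD5*, a jmjC protein with a role in the circadian clock (0.78 in *sdg8-2* against 0.68 in *sdg26-1* at 16 °C), an A3 event of the SET-domain gene AT3G55080 (0.27 against 0.11 at 16 °C), an A5 event of the ARID/BRIGHT gene AT1G76510 (0.54 against 0.70 at 25 °C), and A3 events of the PHD-type genes AT4G14920 and AT1G77800. The events of *JMJD5* and AT1G77800 and the A3 event of *SDG25* reached 0.1 in size and no more. *HAC12* and *SDG25* each gave more than 1 of the 10 events. The median absolute difference of the group was 0.055 at 16 °C and 0.07 at 25 °C, beside 0.03 and 0.04 over all events.

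Transcription factors and the transcription machinery had 11 of 24 events differing (45.8%, against 26.7% over all events). The differing events were 3 at 16 °C (12.5%, against 13.9%) and 10 at 25 °C (41.7%, against 17.4%). Those at 25 °C included both the A5 and the IR event of AT3G04450. Of the events at 25 °C, 3 came from 1 gene, the mitochondrial transcription termination factor AT1G61970, where *sdg8-2* was lower in all of them (0.33 against 0.45, 0.70 against 0.80 and 0.65 against 0.77). At 25 °C *sdg8-2* was higher in IR events of AT1G01210, an RNA polymerase subunit (0.91 against 0.74), of *TAF15b*, a TBP-associated factor (0.56 against 0.45), and of *REF4*, a subunit of the Mediator complex (0.35 against 0.24). It was also higher in an A3 event of AT5G25520, a transcription elongation factor S-II protein (0.41 against 0.23). At 16 °C the IR event of *FRS2*, of the FAR1 family, was higher in *sdg8-2* (0.87 against 0.71). The IR event of the exonuclease gene AT2G48100, next to *REF4*, had the *REF4* values to within 0.01, so that 1 event may be listed under both genes.

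Vesicle trafficking and autophagy had 6 of 11 events differing, against 26.7% over all events, and all 6 are named here. Besides *ATG18F* and AT1G50970, the IR event of *VPS22*, a subunit of the ESCRT-II complex, was higher in *sdg8-2* at 16 °C (0.37 against 0.20), and that of *SYP41*, a syntaxin of the trans-Golgi network, was lower (0.83 against 0.94). At 25 °C an A5 event of AT1G16825, a Reticulon protein, was lower (0.86 against 0.97), and an A5 event of the vacuolar sorting gene AT1G22860 was higher (0.14 against 0.04). The last was also listed, to within 0.01, under the neighbouring kinase gene AT1G22870.

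Noncoding RNAs and pseudogenes had 13 of 31 events differing (41.9%, against 26.7% over all events). The differing events were 7 at 16 °C (22.6%, against 13.9%) and 9 at 25 °C (29.0%, against 17.4%). The 31 events came from 18 genes, which RefSeq annotates as 8 noncoding RNAs, 2 long noncoding RNAs, 5 pseudogenes and 3 transcribed pseudogenes. AT1G78865 and AT4G07507.1 gave 3 of the 13 events each, AT5G43725 the difference of 0.39, and AT1G27921 the exchange of places described above.

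Splicing factors and other RNA-binding proteins, the group with the most events, had 7 of 43 differing (16.3%, against 26.7% over all events). The differing events were 2 at 16 °C (4.65%, against 13.9%) and 5 at 25 °C (11.6%, against 17.4%). Their median absolute difference was 0.02 at 16 °C and 0.04 at 25 °C, beside 0.03 and 0.04 over all events. The A5 event of *RS31a*, an SR splicing factor, had 0.64 in *sdg8-2* and 0.67 in *sdg26-1* at 16 °C, and 0.61 and 0.42 at 25 °C, where WT had 0.51. At 25 °C the A3 event of the SR protein *SR34* was higher in *sdg8-2* (0.33 against 0.23), and so was the ES event of *PTB1*, a polypyrimidine tract-binding protein (0.76 against 0.66). The A3 event of *ATU2AF65A*, the large subunit of the U2 auxiliary factor that binds near 3′ splice sites, was lower (0.43 against 0.55), and so was the ES event of the SWAP domain gene AT5G55100 (0.34 against 0.45). At 16 °C an IR event of *SR34b* was lower in *sdg8-2* (0.64 against 0.75) and an A3 event of the RNA helicase gene AT3G62310 was higher (0.35 against 0.24). The events of *RS31*, *RS41*, *RS2Z33*, *RS40*, *SCL33* and *SR30* stayed within 0.06 at both temperatures.

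Flowering time and circadian clock genes had 4 of 17 events differing (23.5%, against 26.7% over all events). These were the 2 of *SDG25* and those of *JMJD5* and *PTB1*, and *sdg8-2* was higher at the temperature where they differed. The events of *JMJD5* and *PTB1* and the A3 event of *SDG25* differed by 0.1, the cut itself. No shared direction is read from these 4 events, of which 2 came from 1 gene. Over all 17 events whatever their size, *sdg8-2* was higher in 6 and lower in 8 at 16 °C, and higher in 4 and lower in 12 at 25 °C. The 3 events of *PRR7*, a component of the clock, differed by at most 0.04 in size, and the ES event of *MAF3*, a relative of *FLM*, had 0.18 in both mutants at 16 °C and 0.39 against 0.44 at 25 °C. Protein kinases and phosphatases had 8 of 26 events differing, among them the event of AT1G22870 that is also listed under AT1G22860. Disease resistance and leucine-rich repeat proteins had 3 of 9, and transporters and channels 3 of 12. For disease resistance these were *RPP4* and, at 25 °C only, IR events of 2 other TIR-NBS-LRR genes, AT5G41750 (0.59 in *sdg8-2* against 0.42 in *sdg26-1*) and AT4G19510 (0.70 against 0.80). None of the 11 events of photosynthesis and plastid genes and none of the 6 of heat response and chaperone genes differed by 0.1, and the ubiquitin system had 2 of 17. RNA silencing and mRNA decay had 1 of 5, the event of AT2G48100 that may be the same as that of *REF4*. DNA repair and chromosome segregation had 2 of 7, and the events in none of these groups 43 of 169. The plastid differences ran from −0.05 to 0.06 at 16 °C and from −0.07 to 0.04 at 25 °C. With a background of 26.7% and groups of this size, no group is said here to stand apart.

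**Figure D5:**
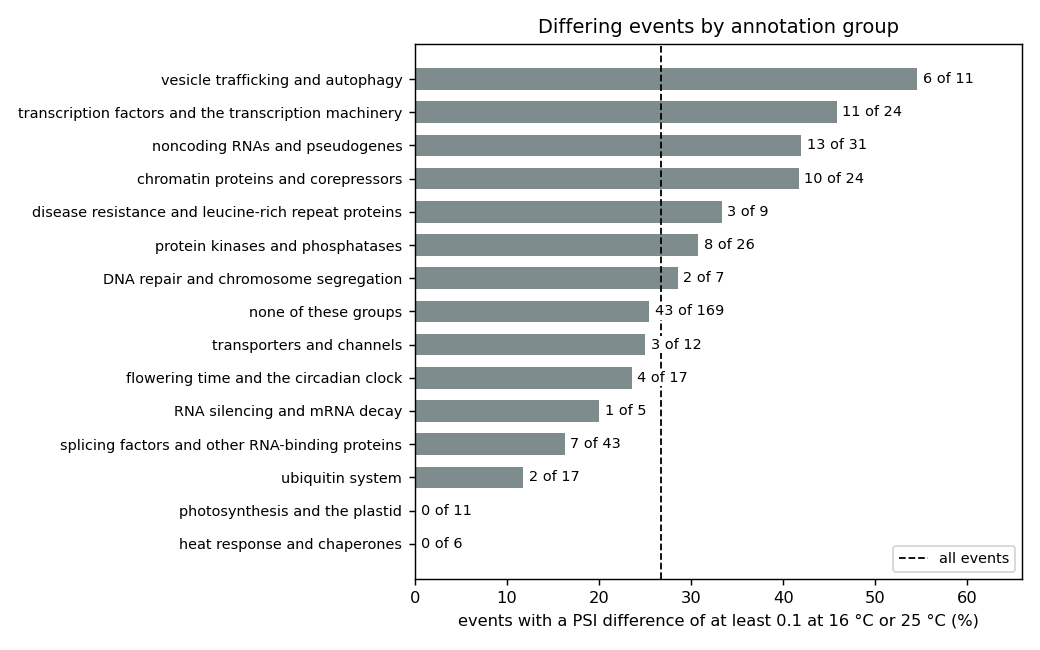
Bars give the share of events, in percent, that differed by at least 0.1 between the mutants at 16 °C or 25 °C in each annotation group, with the counts beside the bars and the share over all events, 26.7%, as a dashed line. Groups at both ends hold few events, such as 6 of 11 for vesicle trafficking and autophagy and 0 of 11 for photosynthesis and the plastid.

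WT was set beside the mutants to describe where it lay relative to them, and it shares no samples with either. At 16 °C, WT was nearer to *sdg26-1* in 31 of the 55 differing events and nearer to *sdg8-2* in 24, and it lay between the mutants in 32 and outside them in 23. At 25 °C it was nearer to *sdg26-1* in 39 of 69 and nearer to *sdg8-2* in 28, with 2 at equal distance. It lay between the mutants in 51 and outside them in 18. Of the 11 events with a difference of at least 0.2 at 16 °C, WT was nearer to *sdg26-1* in 8 and nearer to *sdg8-2* in 3, and at 25 °C the counts were 6 and 6 of 13. Among the 11 events that differed in 1 direction at both temperatures, WT was nearer to *sdg26-1* at both in 6, and nearer to *sdg8-2* at both in 0. These counts were not made over all events, so they are not read as a trait of the differing events.

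Counted against WT, *sdg8-2* differed by at least 0.1 in 71 events at 16 °C (17.9%) and in 58 at 25 °C (14.6%), and *sdg26-1* in 57 (14.4%) and 38 (9.57%). The WT values are common to these counts. Where the mutants differed from each other at 16 °C, *sdg8-2* alone was at least 0.1 from WT in 24 of 55 events, *sdg26-1* alone in 17, both in 7 and neither in 7. At 25 °C the counts were 26, 17, 5 and 21 of 69. Over all 397 events the same counts were 37, 23, 34 and 303 at 16 °C, and 43, 23, 15 and 316 at 25 °C. The larger count for *sdg8-2* alone was thus not particular to events in which the mutants differed.

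Both mutated genes lie on chromosome 1 of TAIR10.1, *SDG8* (AT1G77300) from 29039922 to 29049454 and *SDG26* (AT1G76710) from 28789698 to 28792719. Neither has an event in the table, so that the table holds no check of the insertions. Within 1 Mb of either gene lay 12 events in 9 genes, of which 7 differed at 1 or both temperatures. Of these 12 events 4 came from AT1G78865, which gave 3 of the 7. On the rest of chromosome 1 the share was 22.9% of 96 events, and on chromosomes 2 to 5 it was 25.9%, 22.7%, 30.3% and 27.5%. The nearest gene, AT1G76720, lies 1.425 kb from *SDG26* and encodes an eIF-2 family protein, and its IR event had 0.63 in *sdg8-2*, 0.53 in *sdg26-1* and 0.68 in WT at 16 °C, and 0.76, 0.85 and 0.77 at 25 °C. In this event *sdg26-1* was the farther of the mutants from WT at both temperatures. This did not hold for the events of AT1G76630 and AT1G76510, 24.66 and 77.2 kb from *SDG26*. WT was nearer to *sdg26-1* at 25 °C in AT1G76630 and at 16 °C in AT1G76510. Whether the insertions or linked sequence play a part in these events was not tested.

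The 2 events of *FLM* were set aside because the table has 0 for *sdg8-2* in each, at 16 °C and at 25 °C. The A5 event had 0.87 and 0.70 in *sdg26-1* and 0.89 and 0.69 in WT at 16 °C and 25 °C, and the IR event had 0.11 and 0.22 in *sdg26-1* and 0.11 and 0.25 in WT. A value of 0 can be a failed estimate, and *FLM* lies 79.7 kb from *SDG8*. Whether these values are failed estimates, or have to do with that position, was not tested. With these events included, r between the differences at the 2 temperatures was 0.36 in place of 0.19.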

How the data were processed

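RNA of SAM-enriched tissue was sequenced from poly(A)-selected stranded libraries. The authors mapped reads to TAIR10 with TopHat2, extended the annotation with Cufflinks and Cuffmerge, found events with custom scripts and estimated PSI with MISO on merged replicates, and deposited PSI as a fraction with 2 decimals, 1 value per event and condition. Tool versions: not given in the sources used here. In addition the deposited table holds the authors' difference of PSI between temperatures, which was not used, and the authors' yes or no call, which required a Bayes factor and read minimum and was used here only to state how events were selected and to restrict 1 alternative.

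PSI of *sdg8-2* minus PSI of *sdg26-1* was computed at each temperature with Python 3.11.15 (pandas 2.3.3, numpy 2.4.6, matplotlib 3.10.9, scipy 1.17.1), after a check of the counting on simulated data. The smallest difference counted was 0.1. Of 334 gene labels, 332 matched RefSeq's TAIR10.1 annotation, and 313 of 314 coding spans in the table lay inside the RefSeq gene. Events could not be placed within genes, so no sequence is shown. Named genes were taken from those with a difference of at least 0.2 at 1 temperature or at least 0.1 at both. The 3 largest per event type, direction and temperature, and members of 14 annotation groups with a difference of at least 0.1, could also be named. Not every gene that met these rules is named. *PRR7*, *MAF3*, AT1G76720 and the *SR* genes with small differences were named after their values had been seen. Groups were assigned by words in the annotation or by identifier. The words for the ubiquitin system and transporters were corrected after the data had been seen, because they had matched unrelated text. Members, lists and thresholds were chosen with earlier results of these data known. In all, 11 alternatives were tried. Gene expression, the time series and the ChIP-seq data were not analysed here.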

Additional observations from a re-analysis of the deposited data

Results flagged for a closer look

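In 2 events PSI moved in opposite directions with temperature in the mutants by at least 0.1 each, with 1 pooled value per condition, so that the difference between the mutants was not tested. The IR event of AT1G27921 changed by −0.19 from 16 °C to 25 °C in *sdg8-2* and by 0.2 in *sdg26-1*, and WT changed by 0.22. The IR event of *ATG18F* changed by 0.32 in *sdg8-2* and by −0.13 in *sdg26-1*, and WT changed by 0.11. WT thus moved with *sdg26-1* in the first and with *sdg8-2* in the second.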

How the results depend on the processing

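No paired analysis was possible because the table holds 1 pooled value per condition and no values per replicate; leaving out a replicate could not be done for the same reason. With a smallest difference of 0.05, 37.5% of the events differed at 16 °C, 40.1% at 25 °C, 9.32% at both in the same and 8.56% in opposite directions. With 0.15 the shares were 6.05%, 7.3%, 1.51% and 0.504%, and with 0.2 they were 2.77%, 3.27%, 0.756% and 0%. The share of differing events at 16 °C with WT nearer to *sdg26-1*, 56.4% at 0.1, was 75% of 24 events at 0.15 and 72.7% of 11 at 0.2, but 48.8% of 41 where PSI was from 0.1 to 0.9 in both mutants. At 25 °C the share, 56.5% at 0.1, was 51.7% of 29 events at 0.15, 46.2% of 13 at 0.2 and 62.7% of 51 with PSI from 0.1 to 0.9. Over the 66 events that the authors called in WT alone, the share was 75% of 8 events at 16 °C and 60% of 10 at 25 °C. In these 66 events the median absolute difference at 25 °C was 0.02, and r between the temperatures was 0.467. The value of r was 0.0791 over the 273 events with PSI from 0.1 to 0.9 in both mutants and 0.357 with the *FLM* events kept, against 0.192. Without IR events, 45.2% of the differing events at 25 °C were higher in *sdg8-2*, against 52.2%. At a minimum of 0.11, which allows for rounding, 47 events differed at 16 °C, 57 at 25 °C, and 8 and 5 at both in the same and in opposite directions. Taking 1 event per gene or leaving out the row without a gene moved none of the 11 summary values beyond the limits set (1.5 times for a count, 0.01 for a median, 0.1 for r). Counting the event shared by *SCL33* and AAE18 once moved none either. That event differed by less than 0.1 at both temperatures, so the counts of differing events could not change. The nearly identical events of AT1G22860 and AT1G22870, and of AT2G48100 and *REF4*, differed at 25 °C and were still counted under both genes. The similarity of the SDG8 and SDG26 proteins, planned as a description, was not computed.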
